A study of Mus musculus with 6 samples.

Results

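The mitosis and G2/M genes described here are 50 of the 55357 genes in the deposited table. They were taken by symbol from a list of genes that act between the end of DNA synthesis and cell division. This list was chosen with earlier results of these data known. The RNA came from primary cultures of astrocytes from embryonic mouse cortex. In 3 cultures (KE), the astrocytes had received a plasmid with the CMV promoter before FLAG-tagged BRAF with the K499E substitution, and 3 naive cultures (NT) had not been transfected. The titles and characteristics of the NT samples call them non-transfected, but their treatment protocol repeats the transfection text of the KE samples, and groups were taken from the titles and characteristics. The labels give 1 collection time for all samples, 48 hours after transfection. BRAF is a kinase that activates MEK and ERK, and K499E is a substitution associated with a RASopathy. CMV is a strong viral promoter that is active in many cell types, so it does not restrict the plasmid to astrocytes. No culture given an empty plasmid or BRAF WT is among the samples analysed here, so BRAF KE and the transfection itself cannot be told apart. The labels do not say whether the 3 cultures of a group came from separate embryos or preparations, and the p-values measure the spread between these cultures.

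A cell that has copied its DNA enters mitosis when CDK1, bound to cyclin A and cyclin B, becomes active. The condensed chromosomes then attach to spindle microtubules through kinetochores, the spindle checkpoint holds the cell until every kinetochore is attached, and the anaphase-promoting complex ends the arrest by marking cyclin B and securin for destruction. Many of these genes are repressed in resting cells and transcribed together late in the cycle, under the MuvB complex with B-MYB and FOXM1. MuvB binds a promoter element called CHR (cell cycle genes homology region), often found beside CCAAT boxes that bind NF-Y. Astrocytes from the perinatal rodent cortex still divide in culture, and mRNA of these genes marks dividing cells.

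Of the 50 mitosis and G2/M genes, 49 were downregulated in KE and 1, Pttg1, was upregulated. All 50 passed the filter on low values, a mean normalized count of at least 10 over the 6 cultures. A differentially expressed gene (DEG) is one with a Benjamini-Hochberg adjusted p-value under 0.05 in limma, over all 15280 genes that passed this filter. Among those genes 51.3% were DEGs, 26.0% lower and 25.3% higher in KE. In 49 of 50 members every KE culture lay below every NT culture, which held for 29.9% of all tested genes. A log2FC of -0.5 or below was reached by 48 members, against 13.8% of tested genes downregulated by that much. The median log2FC of the members was -0.94, beside 0.0018 over all tested genes, and it ranged from -1.64 for Mki67 to 1.26 for Pttg1. In bulk RNA, fewer dividing cells and less mRNA of these genes per cell cannot be told apart.

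The fall was similar in size across most of the list. In 42 members the KE mean lay between 45% and 65% of the NT mean, and in 17 members it was below 50%. Summed over the 50 genes, the normalized counts were 99573, 98552 and 95699 in KE and 192136, 186718 and 193702 in NT, so the KE mean was 51.3% of the NT mean. Set against the NT mean of each gene, the median log2 value of the members was -0.88, -0.94 and -0.99 in KE replicates 1, 2 and 3 and lay between -0.03 and 0.03 in NT. The medians within a group were close, but small shifts ran through the list. KE replicate 3 was the lowest KE culture in 27 members and the highest in 4. NT replicate 2 was the lowest NT culture in 26 members and the highest in 8. The median coefficient of variation of the members between cultures was 6.31% in KE and 4.76% in NT. An exact permutation test of a single value between 3 and 3 cultures cannot give a two-sided p below 0.1, so limma, which borrows the spread from all genes, was used for the calls.

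**Figure D1:**
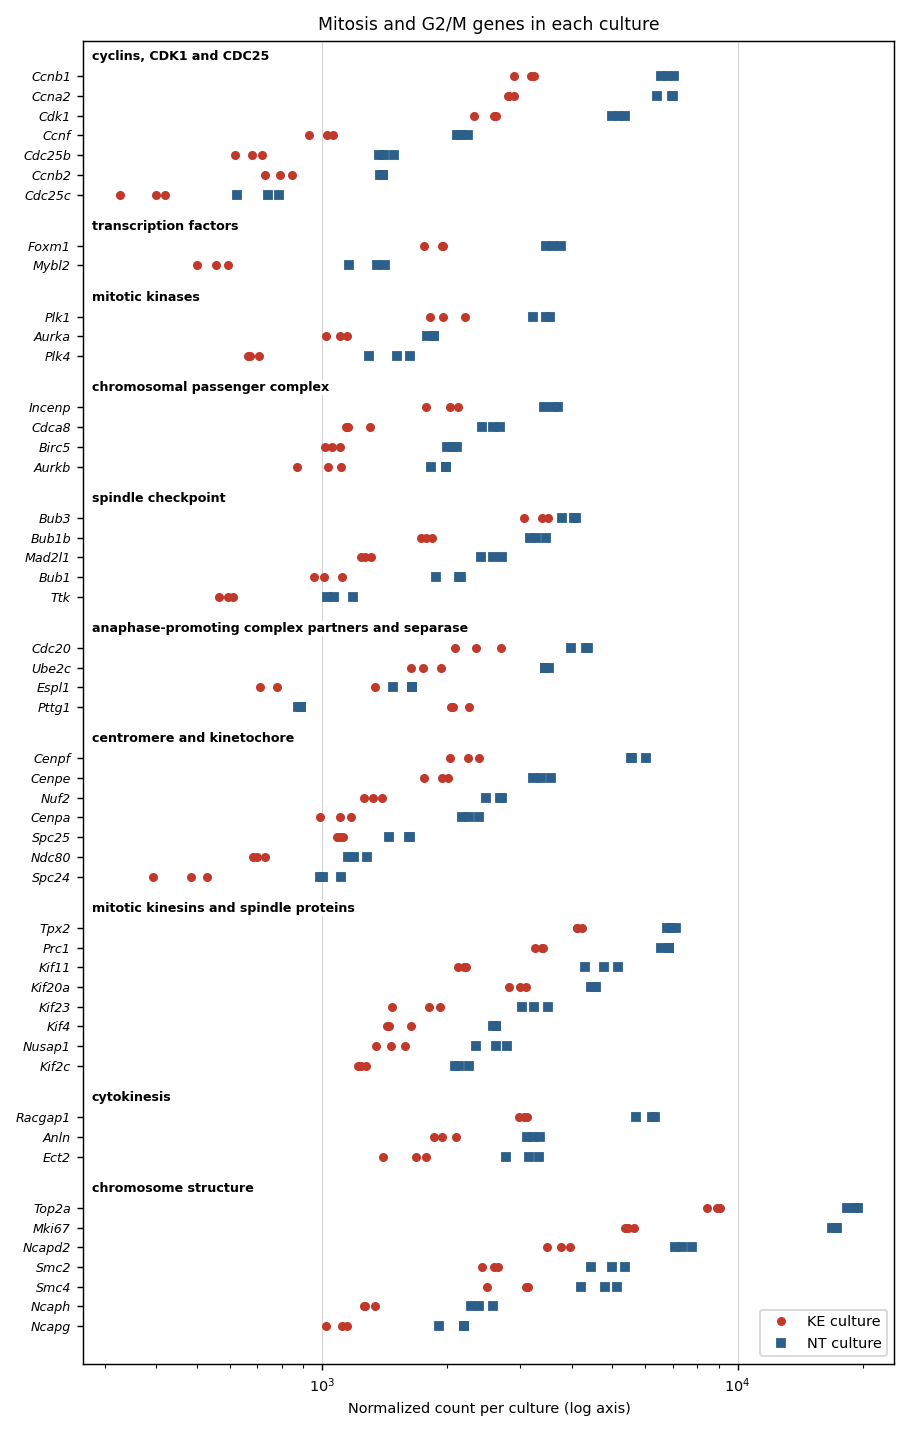
Normalized count of each of the 50 mitosis and G2/M genes in the 3 KE cultures (red circles) and the 3 NT cultures (blue squares), on a log axis, grouped by role and ordered within a role by NT mean. In 49 genes the KE cultures lie to the left of the NT cultures, and Pttg1 is the exception.

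The marker of proliferation Mki67 (ENSMUSG00000031004), which coats mitotic chromosomes, had the largest fall. It lies on chromosome 7 from 135291513 to 135318299 on the minus strand of GRCm39. Mki67 had normalized counts of 5466, 5369.9 and 5642 in KE and 17393, 16842 and 17290.1 in NT. The KE cultures lay within a narrow band far below the NT cultures, at 32.0% of the NT mean (log2FC -1.64, standard error 0.05, adjusted p = 4.3e-09 by limma). Its promoter is printed below in full, together with those of Cdk1, Ccnb2, Plk1, Cenpf, Bub3 and Pttg1. They stand for the largest fall, the main kinase, a cyclin B gene, a mitotic kinase, the largest kinetochore fall, the smallest fall and the only rise, and were picked after the values were seen. The windows are RefSeq's, 250 bases before to 50 bases after a gene start. The table is of build GRCm38.p6, and each sequence was placed on GRCm39 by its only exact match. The whole window is shown for Mki67 and Pttg1 and its last 150 bases for the others, each 5′ to 3′ on the gene's strand. Capitals mark the letters of CHR (TTTGAA or TTCGAA) and of CCAAT, with either motif read on both strands, so TTCAAA and ATTGG are the reverse readings.
Mki67, chr7:135318059-135318358, minus strand: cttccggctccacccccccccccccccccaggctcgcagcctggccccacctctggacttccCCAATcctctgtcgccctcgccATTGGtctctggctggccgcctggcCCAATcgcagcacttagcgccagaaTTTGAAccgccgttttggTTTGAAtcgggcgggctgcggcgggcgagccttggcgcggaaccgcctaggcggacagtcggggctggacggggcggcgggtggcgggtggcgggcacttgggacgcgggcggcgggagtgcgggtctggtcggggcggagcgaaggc
Cdk1, chr10:69188693-69188842, minus strand: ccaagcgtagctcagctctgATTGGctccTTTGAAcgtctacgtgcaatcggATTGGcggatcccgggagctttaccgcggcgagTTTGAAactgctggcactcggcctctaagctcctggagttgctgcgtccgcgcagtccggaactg
Ccnb2, chr9:70328787-70328936, minus strand: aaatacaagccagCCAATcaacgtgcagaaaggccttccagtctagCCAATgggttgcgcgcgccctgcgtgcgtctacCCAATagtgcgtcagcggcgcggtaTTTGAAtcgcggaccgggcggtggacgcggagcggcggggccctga
Plk1, chr7:121758558-121758707, plus strand: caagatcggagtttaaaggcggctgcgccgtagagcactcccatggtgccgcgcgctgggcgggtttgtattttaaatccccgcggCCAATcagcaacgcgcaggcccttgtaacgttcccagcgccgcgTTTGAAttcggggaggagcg
Cenpf, chr1:189420234-189420383, minus strand: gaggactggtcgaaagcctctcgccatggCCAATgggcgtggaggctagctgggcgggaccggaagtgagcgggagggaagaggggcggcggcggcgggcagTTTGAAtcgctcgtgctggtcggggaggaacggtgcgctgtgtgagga
Bub3, chr7:131161999-131162148, plus strand: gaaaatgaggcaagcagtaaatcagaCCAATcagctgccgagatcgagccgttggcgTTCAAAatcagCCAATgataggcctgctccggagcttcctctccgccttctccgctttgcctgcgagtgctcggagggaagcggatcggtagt
Pttg1, chr11:43316759-43317058, minus strand: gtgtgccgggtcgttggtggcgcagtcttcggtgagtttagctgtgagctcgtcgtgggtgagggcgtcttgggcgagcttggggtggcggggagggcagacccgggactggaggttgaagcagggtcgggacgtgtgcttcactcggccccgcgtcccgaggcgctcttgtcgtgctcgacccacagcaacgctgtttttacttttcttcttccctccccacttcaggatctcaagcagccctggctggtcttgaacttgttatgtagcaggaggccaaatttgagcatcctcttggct

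Of the 50 members, 41 had a window in the RefSeq table. No window was listed for Incenp, Kif20a, Smc4, Spc24, Aurkb, Tpx2, Foxm1, Ccna2 and Cdc25c. CHR letters were present in 31 of 41 members (75.6%), against 19.4% of the 27025 genes with a window and 13.7% of the 11414 tested genes with one. In the 100 bases around the start (50 before to 50 after), 28 of 41 members (68.3%) held CHR letters, against 5.29% of all genes and 3.35% of tested genes. CCAAT was present in 30 of 41 members (73.2%), against 37.9% of all genes. Both motifs occurred in 28 members (68.3%), against 7.7% of all genes. CHR and CCAAT letters can share an end base, and they did so at 1 place in the members' windows, in Cdca8. A match is a description of the sequence and not a site of binding.

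The printed windows do not represent the list, since large falls such as those of Mybl2 and Plk4 held neither motif. Bub3 has CHR letters between a pair of CCAAT boxes, and so has Cdk1, with a further CHR nearer its start. The log2FC had a median of -0.94 in the 31 members with CHR letters and of -0.97 in the 10 without. Those without were Birc5, Ccnb1, Cenpe, Mad2l1, Mybl2, Ncaph, Nuf2, Nusap1, Plk4 and Pttg1. Ccnb1 and Cenpe hold CCAAT, and the other 8 hold neither motif in this window. Of other mitotic genes 31 of 54 (57.4%) held CHR letters, and of DNA replication genes 8 of 39 (20.5%). CCAAT was held by 37 of 54 other mitotic genes (68.5%) and 24 of 39 DNA replication genes (61.5%), beside the 73.2% of members.

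**Figure D2:**
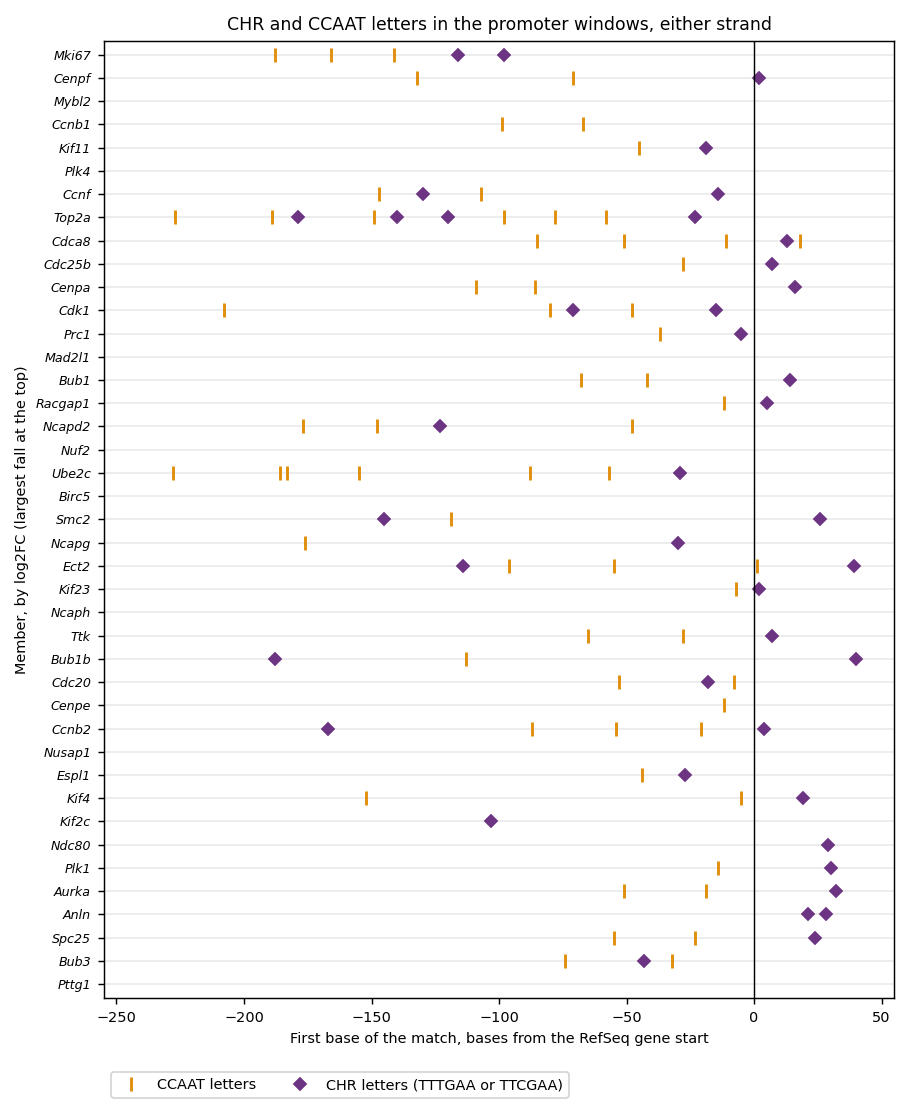
Position of CHR letters (purple diamonds) and CCAAT letters (orange bars) in the promoter windows of the 41 members that had one, in bases from the RefSeq gene start, with the member of the largest fall at the top. CHR letters lie mostly within 50 bases of the start, with CCAAT upstream of them, and no order by log2FC is seen.

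Pttg1 encodes securin, the inhibitor that holds separase in check until anaphase, and it was the only member that rose. Pttg1 had normalized counts of 2066, 2257 and 2042 in KE and 893, 891 and 874 in NT. Every KE culture was more than double every NT culture, with means of 2122 ± 118 (SD, n = 3) and 886 ± 10.4 (SD, n = 3). The rise (log2FC 1.26, standard error 0.07, adjusted p = 8.1e-08 by limma) was 1 of the upregulated DEGs with a log2FC of 1 or above, which made up 4.74% of tested genes. Pttg1 (ENSMUSG00000020415) lies on chromosome 11 from 43311071 to 43321000 on the minus strand of GRCm39, where it overlaps Slu7, a splicing factor gene on chromosome 11 from 43317403 to 43340791 on the plus strand. Slu7 was also upregulated, with normalized counts of 2236, 2241 and 2266 in KE and 1677, 1618 and 1599 in NT (log2FC 0.46, standard error 0.06, adjusted p = 5.0e-05). The library kit marks the strand, but the strand setting of the counting is not given in the sources used here, so the share of reads from the overlap counted for either gene was not tested. The RefSeq start used for the Pttg1 window lies 4192 bases inside the longer Gencode gene, and that of Cdk1 lies 47853 bases inside its own. At the Gencode start of Pttg1, the window of the same length held no CHR letters and 1 CCAAT.

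The partners of securin moved the other way. Espl1, separase itself, which cleaves cohesin once securin is destroyed, had normalized counts of 708, 1341 and 779.6 in KE and 1483, 1649 and 1651 in NT. KE replicate 2 stood apart from the other KE cultures and lay near the lowest NT culture, without overlap. The coefficient of variation of Espl1 in KE, 36.7%, was the highest of all members, and its standard error was accordingly wide (log2FC -0.82, standard error 0.19, adjusted p = 0.0038 by limma). Cdc20, which activates the anaphase-promoting complex, had normalized counts of 2348, 2694 and 2088 in KE and 3969, 4321 and 4365 in NT (log2FC -0.83, standard error 0.09, adjusted p = 1.5e-05). Ube2c, the ubiquitin-conjugating enzyme that works with this complex, had normalized counts of 1748, 1939 and 1641 in KE and 3519, 3447 and 3433 in NT (log2FC -0.97, standard error 0.07, adjusted p = 7.2e-07). Both were lower in every KE culture than in any NT culture, so in this group 3 of 4 members fell and 1 rose.

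All 7 members of the group of cyclins, CDK1 and CDC25 phosphatases fell, with a median log2FC of -1.08. Cdk1 (ENSMUSG00000019942), the kinase that drives entry into mitosis, had normalized counts of 2596, 2619 and 2318 in KE and 5185, 4995 and 5370.2 in NT (log2FC -1.05, standard error 0.06, adjusted p = 2.4e-07 by limma). Its cyclin partner Ccnb1 had normalized counts of 3191, 3245 and 2901 in KE and 7048, 6764 and 6542 in NT (log2FC -1.13, standard error 0.06, adjusted p = 1.1e-07). Ccna2, cyclin A2, which acts in S phase and G2, had normalized counts of 2816, 2907 and 2799 in KE and 6990.4, 6400.2 and 6946 in NT (log2FC -1.25, standard error 0.06, adjusted p = 3.0e-08). In each of these 3 genes the highest KE culture was below the lowest NT culture by a wide margin. Ccnf, a cyclin that serves as substrate receptor of a ubiquitin ligase, had normalized counts of 933, 1064 and 1028 in KE and 2111, 2251 and 2164 in NT (log2FC -1.11, standard error 0.07). The other cyclin B gene, Ccnb2, had normalized counts of 791, 848 and 729 in KE and 1379.7, 1402 and 1406 in NT (log2FC -0.82, standard error 0.07). Cdc25b and Cdc25c encode phosphatases that remove inhibitory phosphates from CDK1. Cdc25b had normalized counts of 679.7, 718 and 618 in KE and 1410.4, 1370.0 and 1489 in NT (log2FC -1.08, standard error 0.08). Cdc25c had normalized counts of 419, 399 and 328 in KE and 742, 626 and 789 in NT (log2FC -0.91, standard error 0.12). The groups were again separated in these 4 genes, and Cdc25c had the lowest level per kilobase of exon of all members in NT, 119 normalized counts per kb.

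Both transcription factors of the late cell cycle fell. Mybl2 (B-MYB), which joins MuvB to activate G2/M genes, had normalized counts of 500.2, 557 and 594 in KE and 1165, 1359 and 1416 in NT (log2FC -1.25, standard error 0.10, adjusted p = 1.3e-06 by limma). Foxm1, which is recruited to the same promoters later in the cycle, had normalized counts of 1758, 1953 and 1943 in KE and 3469, 3596 and 3757 in NT (log2FC -0.94, standard error 0.06, adjusted p = 5.5e-07). Both were separated between the groups, with Mybl2 at 41.9% and Foxm1 at 52.3% of the NT mean. The 3 mitotic kinases, with roles at the centrosome and spindle, also fell. Plk1, which acts from mitotic entry to cytokinesis, had normalized counts of 1954, 2216 and 1819 in KE and 3229, 3462 and 3529 in NT (log2FC -0.77, standard error 0.08, adjusted p = 9.9e-06). Plk4, the kinase that starts centriole duplication, had normalized counts of 704, 666 and 672 in KE and 1629, 1299 and 1518 in NT (log2FC -1.12, standard error 0.09, adjusted p = 1.7e-06). Aurka, the Aurora kinase of spindle poles, had normalized counts of 1103, 1152 and 1023 in KE and 1794, 1859 and 1866 in NT (log2FC -0.75, standard error 0.07).

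The chromosomal passenger complex corrects faulty attachments at the centromere and later moves to the midzone, and its 4 genes all fell. Incenp, the scaffold, had normalized counts of 2033, 1779 and 2125 in KE and 3425, 3600.4 and 3705 in NT (log2FC -0.86, standard error 0.07, adjusted p = 3.1e-06 by limma). Cdca8, which encodes borealin, a targeting subunit, had normalized counts of 1155, 1307 and 1144 in KE and 2427, 2583 and 2676 in NT (log2FC -1.09, standard error 0.07). Birc5, which encodes survivin, the subunit that binds centromeric chromatin, had normalized counts of 1109, 1055 and 1017 in KE and 2001, 2070.2 and 2119.6 in NT (log2FC -0.96, standard error 0.06). The kinase of the complex, Aurkb, had normalized counts of 1033, 1112 and 869.7 in KE and 1827, 1992 and 1986 in NT (log2FC -0.95, standard error 0.09). Every KE culture was below every NT culture in the 4 genes, and the differences between the genes were not tested.

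Among the 5 genes of the spindle checkpoint, 4 had a log2FC between -1.01 and -0.89 and Bub3 one nearer to 0. Mad2l1, which together with BUBR1 and BUB3 inhibits CDC20, had normalized counts of 1315, 1245 and 1267 in KE and 2575, 2418 and 2708 in NT (log2FC -1.01, standard error 0.06). The kinase gene Bub1 had normalized counts of 1119.8, 957 and 1011 in KE and 2167, 1877 and 2139 in NT (log2FC -1.001, standard error 0.08). Bub1b, which encodes BUBR1, had normalized counts of 1844, 1785 and 1729 in KE and 3164, 3278 and 3462 in NT (log2FC -0.89, standard error 0.06). None of these 3 genes had overlapping groups. Ttk, the kinase at the head of the checkpoint, had normalized counts of 611, 594 and 565 in KE and 1188, 1031 and 1067 in NT (log2FC -0.89, standard error 0.08). Bub3, which carries BUB1 and BUBR1 to kinetochores, had normalized counts of 3497, 3391 and 3058 in KE and 3778, 4038 and 4093 in NT. The groups did not overlap, but KE was still at 83.5% of NT (log2FC -0.26, standard error 0.07, adjusted p = 0.0063 by limma). The difference between Bub3 and the other checkpoint genes was not tested.

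Kinetochore genes fell in 7 of 7 cases, with a median log2FC of -0.98. Cenpf, a large kinetochore protein of G2 and mitosis, had normalized counts of 2243, 2033 and 2384 in KE and 6008, 5559.9 and 5545 in NT (log2FC -1.36, standard error 0.07, adjusted p = 6.8e-08 by limma). Its KE values were at 38.9% of NT, the lowest percentage after Mki67. Cenpa, the histone variant that marks centromeres, had normalized counts of 1107, 1178 and 990.0 in KE and 2177, 2382 and 2264 in NT (log2FC -1.06, standard error 0.08). The kinetochore motor gene Cenpe had normalized counts of 2008, 1762 and 1942 in KE and 3553, 3223 and 3367 in NT (log2FC -0.83, standard error 0.07). The NDC80 complex grips spindle microtubules with its 4 subunits. Spc24 had normalized counts of 530.4, 486 and 393 in KE and 1005, 989 and 1110.4 in NT (log2FC -1.15, standard error 0.11). Nuf2 had normalized counts of 1396, 1263 and 1328 in KE and 2706, 2476 and 2681 in NT (log2FC -0.98, standard error 0.07). Ndc80 had normalized counts of 699.7, 729 and 684 in KE and 1283, 1153 and 1194 in NT (log2FC -0.78, standard error 0.07). These 3 subunits were separated between KE and NT. Spc25 had normalized counts of 1123, 1089.8 and 1108 in KE and 1632, 1453 and 1623 in NT (log2FC -0.50, standard error 0.07), with groups that were separated by less.

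All 8 genes of mitotic kinesins and spindle proteins fell, with a median log2FC of -0.80. Tpx2, which activates Aurora A on the spindle, had normalized counts of 4224, 4101 and 4098 in KE and 6920.5, 6776 and 7106 in NT (log2FC -0.74, standard error 0.05, adjusted p = 6.2e-07 by limma). Prc1, which bundles the microtubules of the midzone, had normalized counts of 3411, 3380.2 and 3248 in KE and 6830.2, 6556 and 6823 in NT (log2FC -1.01, standard error 0.05, adjusted p = 8.2e-08). Kif11, the motor that pushes the spindle poles apart, had normalized counts of 2225, 2195 and 2123 in KE and 5169, 4298 and 4770.0 in NT (log2FC -1.12, standard error 0.07, adjusted p = 3.1e-07). In these genes too no KE culture reached an NT culture. The central spindle motor Kif23 had normalized counts of 1919, 1479 and 1815 in KE and 3237, 3501 and 3025 in NT (log2FC -0.91, standard error 0.09). The chromokinesin Kif4 had normalized counts of 1638, 1438 and 1448 in KE and 2619, 2576 and 2630.4 in NT (log2FC -0.79, standard error 0.07). Kif2c, which depolymerizes microtubules, had normalized counts of 1276, 1242 and 1222 in KE and 2139, 2254 and 2088 in NT (log2FC -0.79, standard error 0.06). The KE values of these motors lay below all their NT values. Nusap1, which binds and bundles microtubules, had normalized counts of 1587, 1347 and 1470.4 in KE and 2796, 2351 and 2619 in NT (log2FC -0.82, standard error 0.08). Kif20a, another midzone motor, had normalized counts of 2992, 3099.8 and 2827 in KE and 4432, 4574 and 4532 in NT (log2FC -0.60, standard error 0.06), the log2FC nearest to 0 in the group.

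The 3 cytokinesis genes fell. Racgap1, the partner of KIF23 in centralspindlin, had normalized counts of 2975, 3118 and 3060.4 in KE and 5700.1, 6348 and 6227 in NT (log2FC -0.996, standard error 0.06, adjusted p = 2.0e-07 by limma). The exchange factor gene Ect2, which turns on RhoA at the division plane, had normalized counts of 1785, 1403 and 1683 in KE and 3151, 2768 and 3323 in NT (log2FC -0.93, standard error 0.10). The contractile ring scaffold Anln had normalized counts of 2104, 1862 and 1941 in KE and 3217, 3120.3 and 3354 in NT (log2FC -0.72, standard error 0.06). No KE culture overlapped the NT cultures in the 3 genes.

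Besides Mki67, the chromosome structure group held Top2a and 5 condensin genes, and all fell. Top2a, topoisomerase II alpha, which untangles sister chromatids, had normalized counts of 9065, 8917 and 8430.4 in KE and 19441, 18308 and 19142 in NT (log2FC -1.11, standard error 0.05, adjusted p = 6.0e-08 by limma). Per kb of exon its level in NT was the highest of the members after Cdc20, at 2080.5 against 2165 normalized counts per kb. Condensin compacts chromosomes and is built on Smc2 and Smc4. Smc2 had normalized counts of 2649.8, 2428 and 2593 in KE and 5357, 4449 and 4984 in NT (log2FC -0.94, standard error 0.07). Smc4 had normalized counts of 3132, 2491 and 3101 in KE and 5133, 4208 and 4799 in NT (log2FC -0.70, standard error 0.10). Ncapd2, Ncapg and Ncaph encode further subunits, those of condensin I. Ncapd2 had normalized counts of 3489, 3961 and 3765 in KE and 7086, 7779 and 7361 in NT (log2FC -0.99, standard error 0.06). Ncapg had normalized counts of 1151, 1119 and 1023 in KE and 2201, 1915 and 2192 in NT (log2FC -0.94, standard error 0.08). Ncaph had normalized counts of 1344, 1263 and 1271 in KE and 2382, 2282 and 2581 in NT (log2FC -0.90, standard error 0.07). All 5 condensin genes were lower in every KE culture than in any NT culture.

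**Figure D3:**
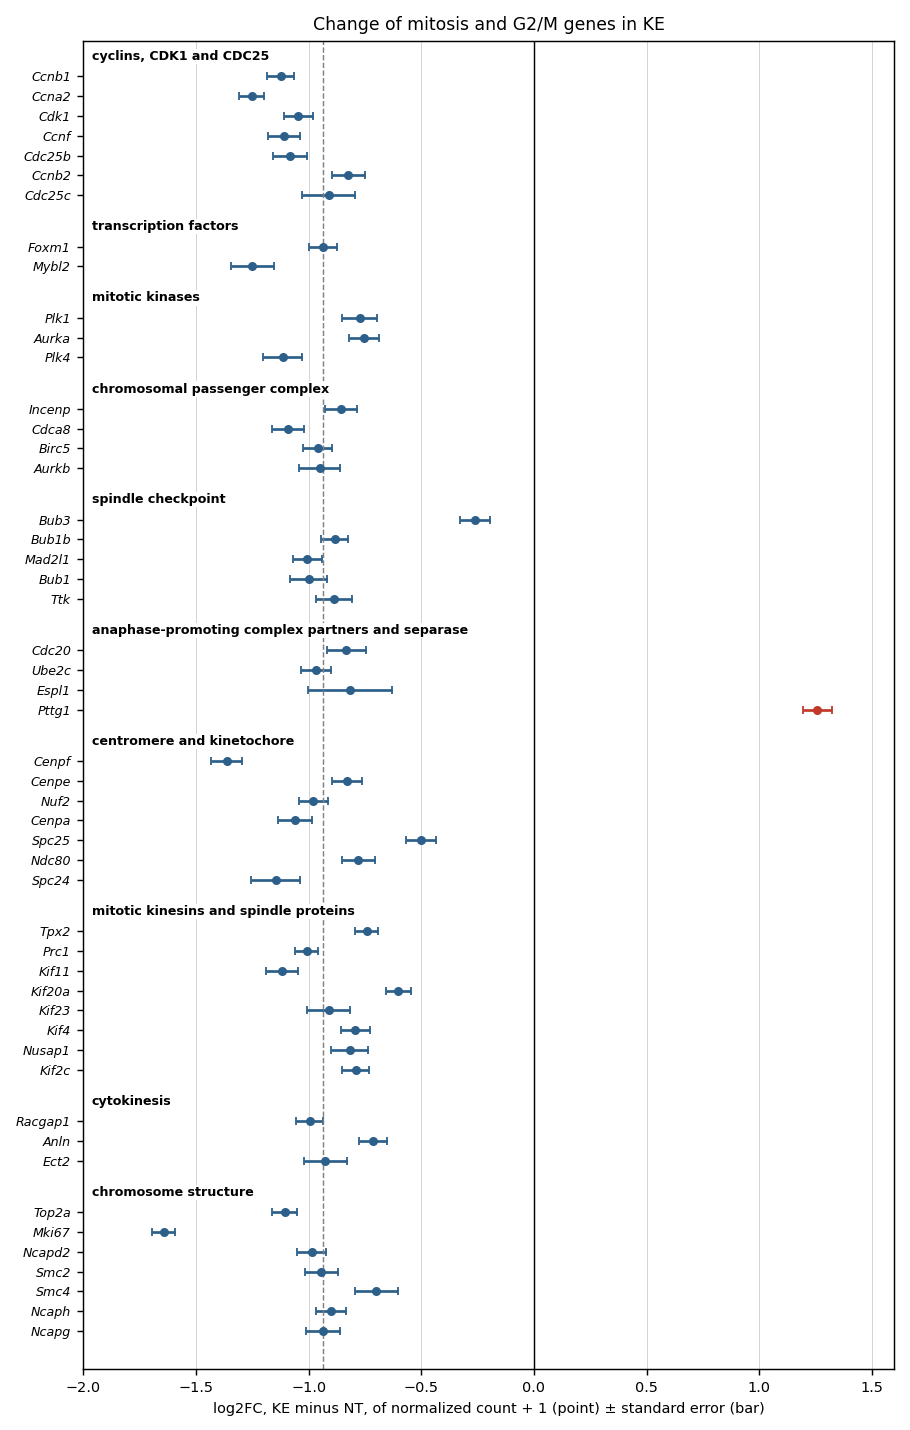
log2FC of each member, KE minus NT, on the log2(normalized count + 1) scale (points) with limma's standard error (bars), grouped by role. The dashed line marks the members' median of -0.94, around which most genes gather, and Mki67, Bub3, Spc25 and Pttg1 lie farthest from it on either side.

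Other cell cycle genes were counted from lists written with earlier results of these data known. Over all tested genes, 26.0% were lower and 25.3% higher in KE. Of 65 other mitotic genes 62 fell, 1 rose and 2 were not DEGs, with a median log2FC of -0.81. The largest fall was that of Lmnb1, a nuclear lamin gene (log2FC -1.38, standard error 0.06, adjusted p = 4.2e-08 by limma), and the rise was that of Zwint, a kinetochore gene (log2FC 0.29, standard error 0.05, adjusted p = 7.1e-04). All 48 DNA replication genes fell, with a median of -0.83 and the largest fall in the origin recognition gene Orc1 (log2FC -1.27, standard error 0.13, adjusted p = 1.2e-05). Subunits and regulators of the anaphase-promoting complex and cohesin, many of which are needed outside mitosis, had a median of -0.32. Of these 21 genes 13 fell, none rose and 8 were not DEGs. The regulators Fzr1, Pds5a, Pds5b and Wapl were among those that fell. Among 28 regulators of G1 and cell cycle exit, 17 fell, 4 rose and 7 were not DEGs. Cdkn1a, which encodes the CDK inhibitor p21, had normalized counts of 11660.3, 12056 and 11924 in KE and 7668, 8328 and 7593 in NT (log2FC 0.60, standard error 0.06, adjusted p = 6.3e-06), with every KE culture above every NT culture. The largest rise in this list was that of Cdkn2b, another CDK inhibitor (log2FC 0.60, standard error 0.08, adjusted p = 8.1e-05). Of the other 5 CDK inhibitor genes listed, 3 fell and 2 were not DEGs. The list's largest fall was that of E2f7, a repressor of the E2F family (log2FC -1.38, standard error 0.12, adjusted p = 3.4e-06).

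**Figure D4:**
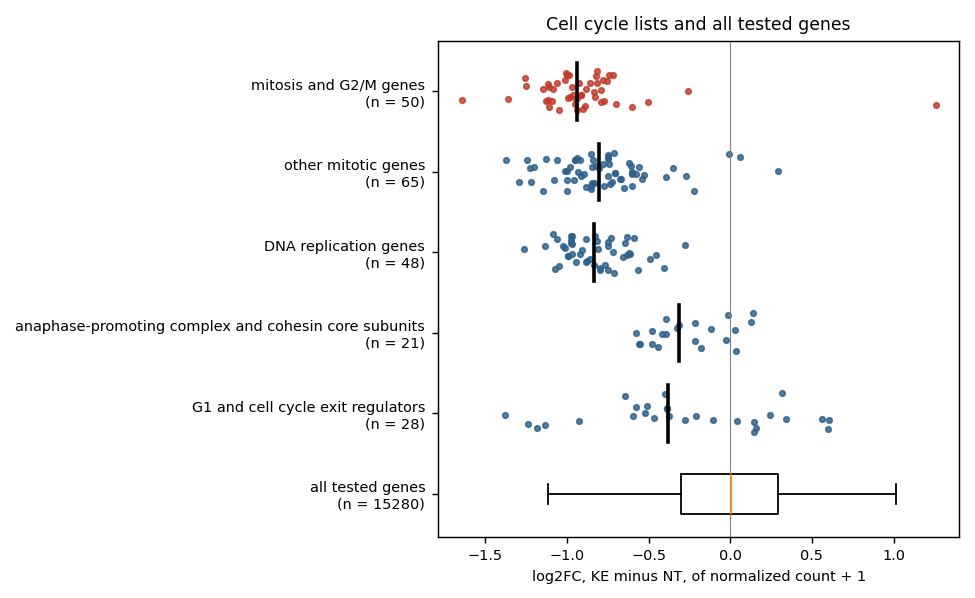
log2FC, KE minus NT, of the 50 mitosis and G2/M genes (red) and of 4 other cell cycle lists (blue), each point 1 gene and each black bar the list's median, above a box plot of all 15280 tested genes (box, quartiles; whiskers, 5th to 95th percentile). Points are shifted at random up and down within a list to keep them apart. The list labelled core subunits also holds the regulators Fzr1, Pds5a, Pds5b and Wapl.

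Markers of the other cell types that such cultures can hold were measured beside these genes, and several changed. Their counts stand beside 26.0% lower and 25.3% higher in KE among all tested genes. Summed normalized counts of 16 microglia and macrophage markers were 5553, 7683 and 5575 in KE and 55159, 54020.3 and 46717 in NT, so KE was at 12.1% of NT. All 15 of the tested markers fell, and Siglech was at 0 in all 6 cultures. The oligodendrocyte lineage list had sums of 27778, 31876 and 27105 in KE and 36196, 35920.5 and 36217 in NT, and 7 of 7 tested markers fell. For neurons the sums were 6611, 6531 and 6792 in KE and 8770.3, 8592 and 9353 in NT, with 2 markers lower and 1 higher of 6 tested. The astrocyte markers summed to 150288, 152751 and 151648 in KE and 109620.0, 109516 and 114729 in NT, with 6 of 10 upregulated and 2 downregulated. The levels within this list were uneven, and S100b was low, with normalized counts of 22.6, 18.8 and 11.8 in KE and 26.7, 21.7 and 31.5 in NT (log2FC -0.60, standard error 0.32, adjusted p = 0.15 by limma). Vascular and mesenchymal markers had sums of 1603, 1677 and 1782 in KE and 1502, 1800.4 and 1603 in NT, which overlapped, with 2 of 6 tested markers higher and 2 lower. Of the defining markers, Mog and Rbfox3 were below the filter, and Cldn5 was at 0 in 5 of 6 cultures. The part of these cell types in the fall of the mitosis and G2/M genes was not tested.

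**Figure D5:**
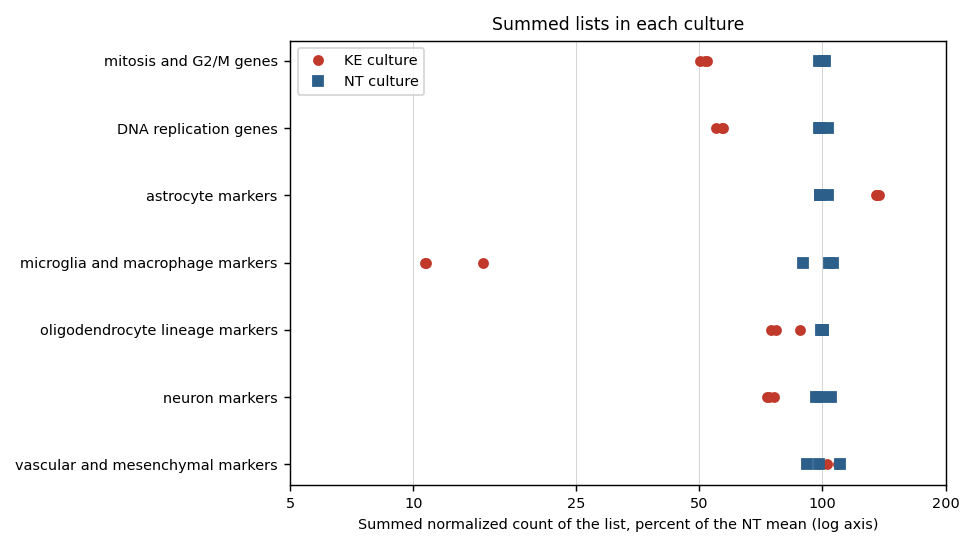
Summed normalized counts of the mitosis and G2/M genes and of other lists in each KE culture (red circles) and NT culture (blue squares), as a percentage of the NT mean on a log axis. The mitosis and G2/M genes lie near 51.3% in KE and DNA replication genes near 56.4%, while microglial markers lie far lower and astrocyte markers higher.

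The transfected gene was high in every KE culture, with Braf at normalized counts of 35025, 34933 and 40978 in KE and 925, 811 and 946 in NT (log2FC 5.37, standard error 0.08, adjusted p = 2.1e-11 by limma). An estimate of depth, from the total and the most frequent low value of each culture, was 24500000 to 34100000 reads, lowest in KE replicate 2. Pearson's r across genes was at least 0.9885 within a group and at most 0.950 between groups, a description only, since genes are not independent replicates. Per kb of Gencode exon, the members spanned from 119 (Cdc25c) to 2165 (Cdc20) normalized counts in NT and from 63 to 1220.2 in KE. Of the 50 members, 19 overlap the span of another protein-coding gene, introns included, in Gencode vM39. Except for Tex52 and Gm44596, which overlap Foxm1 on its own strand, these genes lie on the other strand. Overlap of exons was not measured, and the share of reads that could have been counted for either gene was not tested.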

How the data were processed

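RNA-seq of 3 KE and 3 NT cultures was used, with groups and replicate numbers from the sample labels. Libraries were made with a stranded mRNA kit. The authors deposited a normalized signal for each of 55357 genes, which is the Salmon count of a gene after division by the DESeq2 size factor of its culture. This removes the sequencing depth, and the values are not whole. The study's methods name Trim Galore, STAR, GRCm39 and Gencode, in a paragraph that describes sequencing of hippocampus and spheroids and names the astrocyte samples for a log2FC cutoff. They also mention an adjustment for batches without naming them. The submitters' notes list build GRCh38, whereas the gene identifiers are those of mouse. Whole reads could not be recovered (69.7% to 73.7% of low values came within 0.1 of multiples of 1 read), so no count test was run.

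For the comparison of KE with NT, limma 3.58.1 (R 4.3.3) was run on log2(normalized count + 1) with a variance trend and no factor beside group, in the 15280 genes with a mean of at least 10, and p-values (two-sided) were adjusted by Benjamini-Hochberg over all of them. Because of the added 1, the log2FC of a low gene is smaller than its true change. The fit was tested on simulated data. Motifs were searched with Python in the first RefSeq window listed for each gene. Coordinates come from Gencode vM39 on GRCm39.

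The members and lists were chosen with earlier results of these data known. All 50 members were accounted for by role, with values in every culture for DEGs with an absolute log2FC of at least 0.5, the highest member of each role, Mki67 and Top2a, and at most the largest rise and fall of each other list, with Cdkn1a. Braf was given as the transfected gene and Slu7 as the neighbour of Pttg1, the latter after its values were seen. Alternatives were other pseudocounts, filters, scalings, thresholds, limma without the trend, a replicate block, other motif windows and leaving out each culture.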

Additional observations from a re-analysis of the deposited data

How the results depend on the processing

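Every alternative tried gave 49 downregulated members and 1 upregulated member, and the members' median log2FC lay between -0.97 and -0.91 throughout. DEGs over all genes numbered 5681 with an adjusted p under 0.01, and between 6776 (without KE replicate 1) and 8046 otherwise, beside 7844. Scaling moved the median of all genes by at most 0.03 on the log2 scale. Espl1 moved most, between -1.10 and -0.64, with a highest adjusted p by limma of 0.037 without the variance trend. Bub3 ranged from -0.30 to -0.20, with a highest adjusted p of 0.033, and Pttg1 from 1.21 to 1.28. With the replicate number as a block (replicate block), limma called 8046 DEGs, 49 members lower and 1 higher. Deviations of cultures with the same number correlated at 0.059 to 0.066 and those with other numbers at -0.050 to -0.010, so each culture correlated best with its own number, a hint from the data only, and the cultures were not treated as pairs. Using any listed RefSeq window left CHR letters in 31 of 41 members, with 21.7% of all genes, a choice made after seeing the data. Depth is known only approximately, and precision rests on 3 cultures a group.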

Other observations

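Among tested genes outside all the lists used here, 318 held CHR letters in the 100 bases around the RefSeq start, and 39.3% of them were downregulated and 19.5% upregulated in KE, with a median log2FC of -0.11. Of the 10897 without such letters, 24.9% were downregulated and 27.2% upregulated, with a median of 0.02. These shares are a description, and no test was run on them.

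A pair of other mitotic genes did not follow the list and were picked after their values were seen. Gtse1, a microtubule-binding protein gene of G2 and mitosis, had normalized counts of 2268, 2455 and 2425 in KE and 2299.8, 2410.2 and 2476 in NT (log2FC -0.01, standard error 0.06, adjusted p = 0.92 by limma). Psrc1, a spindle protein gene, had normalized counts of 2109, 2175 and 2158 in KE and 2077, 2072 and 2030.0 in NT (log2FC 0.06, standard error 0.05, adjusted p = 0.39). The groups of Gtse1 overlapped, and those of Psrc1 were separated by a small margin without passing the threshold.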
